A study of Mus musculus with 6 samples.

Results

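Cytosolic ribosomal protein genes encode the proteins that, with ribosomal RNA, build the small (40S) and the large (60S) subunit of the ribosome. The 40S subunit reads the mRNA, the 60S subunit joins the amino acids, and each ribosome carries about the same complement of proteins, so the genes are usually transcribed at high and matched levels. Many of their mRNAs begin with a run of pyrimidines that lets mTOR signalling control their translation, and loss of one copy of several of these genes in people causes Diamond-Blackfan anaemia, a failure of red cell production.

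The genes were taken by name from the deposited table: symbols that start with Rpl or Rps and a digit, without the Rps6k kinases (10 rows) and without names that mark a pseudogene (2 rows). This gave 83 of the 17909 rows with a name used once. By symbol, 73 of them encode core subunit proteins, 43 of the 60S and 30 of the 40S subunit, 9 are named paralogs or retrocopies, and 1, Rps19bp1, encodes a protein that binds Rps19. The name rule missed 6 subunit genes, among them Rplp0, Rpsa and Fau, which are given separately. GENCODE M21, an annotation of GRCm38, holds all 83 symbols.

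The study followed the embryonic mast cell lineage with total RNA sequencing of cells sorted with Csf1r-iCre fate mapping, a mouse model in which the Csf1r promoter drives Cre and which, per the labels, marks early erythro-myeloid progenitors (EMPs) and the cells that come from them. All 6 libraries came from C57BL/6xFVB embryos. At E11.5 they were EMPs, mast cell progenitors (MCPs) and macrophages (MACs) from fetal liver and MCPs from the limb, followed by MCPs of the limb at E14.5 and, at E16.5, cells of the skin, which the labels call both MCPs and mast cells. Each group is 1 library, the labels do not say how many embryos were pooled, and no difference below has a replicate check or a test.

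The library labelled liver MAC did not look like macrophages alone. Its 9 macrophage marker genes summed to 84.8 FPKM (fragments counted per kilobase of transcript, relative to the library's total), against 2.07 to 22.9 in the other libraries, while 8 eosinophil genes summed to 10021 and 11 neutrophil genes to 8280. The neutrophil genes also summed to 10434 in liver EMP, 1054 in liver MCP and 488 in limb MCP E11.5. Of these sums Mpo alone made up 8174, 878 and 417, and 3621 of that in liver MAC. The median neutrophil gene was at 86.1 FPKM in liver EMP and 281 in liver MAC, so the 2 sums rank these libraries otherwise than the medians do. Mast cell markers summed to 374 in liver MCP, 783 in limb MCP E11.5, 3809 in limb MCP E14.5 and 15827 in skin, against 129 in liver EMP and 66.2 in the library labelled MAC. The skin library stood apart: 5675 genes reached an FPKM of 1 there, against 8270 to 8754 elsewhere. Cpa3, a mast cell protease, took 16.1% of its FPKM sum. Cpa3 alone made up 13494 of the mast cell marker sum in skin and 1856 of that in limb MCP E14.5. The median of the 11 mast cell markers was 142 FPKM in limb MCP E14.5 and 111 in skin as deposited. One of them, Gata2, was listed at 0 in skin. Depth estimated from the steps between low FPKM values was 8550000 to 12200000 fragments per library, which puts a median of 308 (skin) to 2762 (liver MCP) fragments behind a core gene and a counting error alone of 5.70% to 1.90% at that median. In sorted bulk RNA, fewer cells of a type and less RNA per cell cannot be told apart.

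Because FPKM depends on what else fills a library, each comparison is given on the deposited values and after median-of-ratios scaling over the 8774 genes above 0 in all libraries. The scaling divided liver EMP by 1.30, liver MCP by 1.28, liver MAC by 1.05, limb E11.5 by 1.18, limb E14.5 by 1.22 and skin by 0.442. Differences are of log2(FPKM + 1), and a gene is counted as higher or lower where the difference reached 1, that is 2-fold on this scale, among genes that reached an FPKM of 10 in one or both libraries of the pair.

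Sequence sharing limits what single rows can say, and Rps27 shows it. Rps27 encodes a zinc-finger protein of the 40S subunit (ENSMUSG00000090733, GRCm38 chr3:90212522-90213651, minus strand), and Rps27rt (ENSMUSG00000050621, chr9:114982366-114982739, minus strand) is a retrocopy of it. Of the 50-base words in the Rps27 transcript, 98.6% also occur in Rps27rt, and the longest identical run is 341 of 345 bases. The RefSeq windows around their start sites (GRCm38.p6) show where the copies stop being alike. Capitals mark the first 26 bases of a run of 38 that is identical in both, and of the 30 bases before it 5 are equal.
Rps27 (chr3:90213622-90213677, minus strand): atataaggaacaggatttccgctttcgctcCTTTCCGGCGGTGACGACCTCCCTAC
Rps27rt (chr9:114982714-114982769, minus strand): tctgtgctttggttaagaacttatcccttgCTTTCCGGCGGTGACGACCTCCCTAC

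The deposited values of the pair complement each other. Rps27 was 38.8 FPKM in liver EMP, 244 in liver MCP, listed at 0 in liver MAC and both limb libraries, and 90.9 in skin. Rps27rt was 94.1, 239, 123, 221, 139 and listed at 0 in the same order of libraries. Where 1 row was at 0 the other held all of the signal. Of the words of Rps27rt, 91.1% are shared in turn. Whether the reads could separate the 2 rows was not tested, so each row is uncertain on its own. Their sum was 133, 483, 123, 221, 139 and 90.9 FPKM, which as deposited is highest in liver MCP and lowest in skin and has no library at 0. On the sum, liver MCP minus EMP was 1.85 and skin minus limb E14.5 was -0.61, where the Rps27 row alone gave 2.62 and 6.52.

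Rpl34 and Rpl31, 60S proteins, share 37.9% and 20.2% of their words with the table rows Rpl34-ps1 and Rpl31-ps12, which were picked after the values were seen. Rpl34 was 51.8, 19.5, 58.5, 69.0, 82.6 and 1.12 FPKM from liver EMP to skin, and Rpl34-ps1 was 4.80, 29.2, 4.92, 3.58, 8.02 and 18.1. The libraries where Rpl34 was lowest, liver MCP and skin, are those where the pseudogene row was highest. Summed, they were 56.6, 48.7, 63.4, 72.6, 90.6 and 19.2. Rpl31 itself stayed between 21.3 and 39.3 FPKM, while Rpl31-ps12 was 27.0, 11.8, 122, 99.5, 84.0 and 8.04. In the wider annotation, 72 of the 73 core genes share at least 1 word with another gene, with a median of 44.8% of words, so the same question touches most members, and 56 have a named pseudogene (286 in all).

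**Figure D1:**
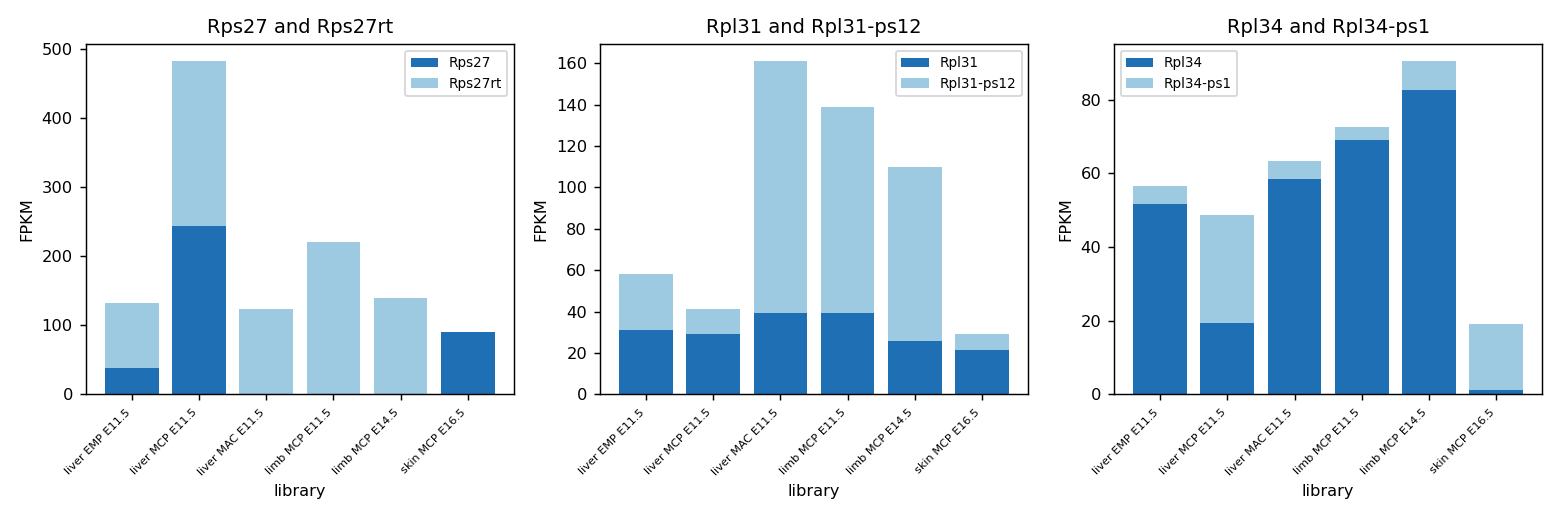
Deposited FPKM of 3 members (dark bars) and the row that shares sequence with each (light bars, stacked) in the 6 libraries. The Rps27 row is at 0 in 3 libraries and Rps27rt in skin, while their sum runs from 90.9 to 483.

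As a family, the members were highest in liver MCP and lowest in skin. They took 9.78% of the FPKM sum in liver EMP, 15.9% in liver MCP, 7.0% in liver MAC, 11.1% in limb E11.5, 9.88% in limb E14.5 and 5.34% in skin. The 73 core genes had a median FPKM of 174, 275, 134, 195, 184 and 36.5 in the same order, and after scaling of 134, 216, 127, 166, 151 and 82.6. Of the core genes, 54 had their highest deposited value in liver MCP and 65 their lowest in skin, with both true for 46. After scaling, 47 were highest in liver MCP and 39 lowest in skin, so the first pattern depended less on the scaling than the second. The same counts were not made over all rows. Of the rows tested, 62.7% were at least 2-fold lower in skin than in limb E14.5 as deposited, and 26.8% after scaling.

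**Figure D2:**
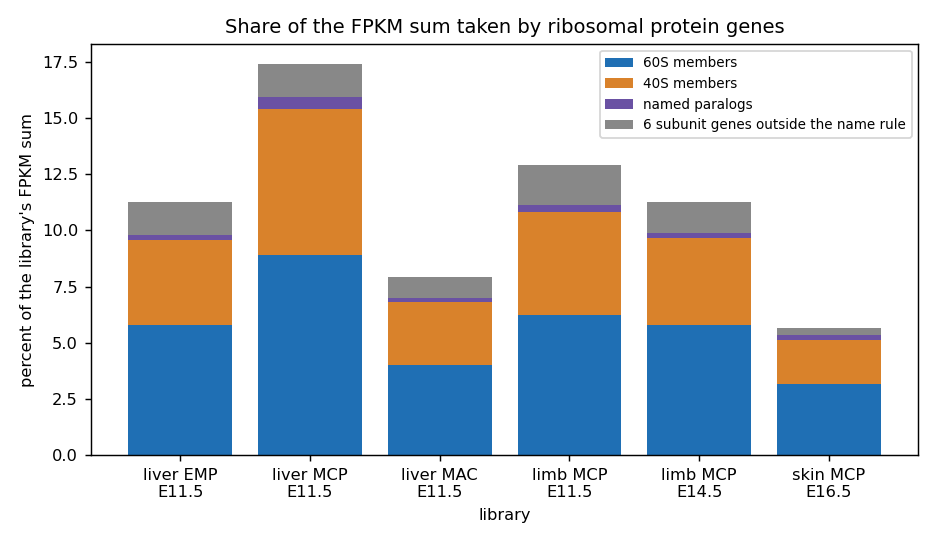
Percent of each library's FPKM sum taken by the 60S and 40S members, the named paralogs and the 6 subunit genes outside the name rule (stacked bars, 1 library each). The members alone take 15.9% in liver MCP and 5.34% in skin.

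The balance between the 2 subunits varied less than the level. The ratio of the summed FPKM of 60S genes to that of 40S genes was 1.53 in liver EMP, 1.38 in liver MCP, 1.44 in liver MAC, 1.35 in limb E11.5, 1.503 in limb E14.5 and 1.61 in skin. The median 40S gene was above the median 60S gene in every library, 359 against 235 FPKM in liver MCP and 48.7 against 34.3 in skin. Within each library the core genes still spread widely, from a lower quartile of 139.9 to an upper quartile of 426 FPKM in liver MCP, for example.

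**Figure D3:**
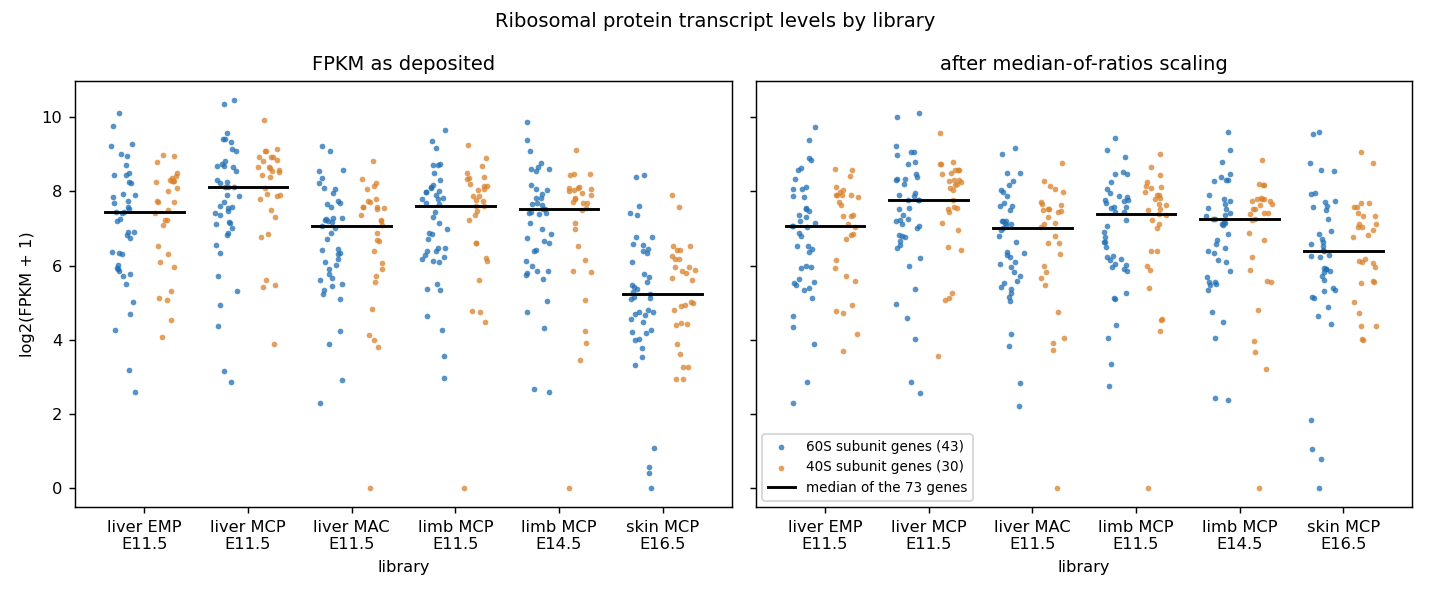
Each point is 1 core gene in 1 library (60S blue, 40S orange), as log2(FPKM + 1), with the median of the 73 genes as a line; left as deposited, right after median-of-ratios scaling. The skin median of 36.5 FPKM becomes 82.6 after scaling, and liver MCP is highest in both panels.

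Rpl41, which encodes one of the shortest known proteins, had the highest mean level (GRCm38 chr10:128548114-128549305, minus strand). It was 1118 FPKM in liver EMP, 1318 in liver MCP, 540.3 in liver MAC, 811 in limb E11.5, 944 in limb E14.5 and 332 in skin. Rpl10, which is added late to the 60S subunit beside the peptidyl transferase centre, followed with 868, 1402, 602, 660, 670.2 and 345 (chrX:74270812-74273135). Rps23, a 40S protein of the decoding centre, was 509, 977, 455, 605, 556 and 236. As deposited, all 3 were highest in liver MCP and lowest in skin. After scaling they were still highest in liver MCP, but none was lowest in skin, where they were 750.5 (Rpl41), 779 (Rpl10) and 535 (Rps23). Rpl4, a 60S protein, was also among the 5 highest means, at 424 FPKM.

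At the other end, Rpl29 and Rpl27, both 60S proteins, were 3.86 to 10.8 and 5.30 to 8.10 FPKM in the first 5 libraries, and Rpl29 was listed at 0 and Rpl27 at 0.47 in skin. They share 66.2% and 53.0% of their words with other annotated genes, and where their fragments were assigned was not tested. Rps28, Rps15a and Rps27a were the next lowest core genes, with means of 17.4, 19.9 and 23.0 FPKM. Rps28 rests on fewer than 100 estimated fragments in every library but liver EMP, which limits each of its differences below. Rps27a is translated as a fusion with ubiquitin.

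In fetal liver, ribosomal protein transcripts were higher in MCPs than in EMPs. Of 75 members that reached the minimum, 65 were above the EMP value. Counts of this kind, by direction alone, were not made over all rows, here or below. The median difference was 0.60 (0.63 after scaling), and the median of all 3369 rows tested was -0.18 (-0.15 after scaling). At least 2-fold higher were 24 members, 32.0% of them, where 8.52% of all rows were, and 2 were at least 2-fold lower, where 15.9% of all rows were. After scaling the counts were again 24 and 2, against 8.76% and 14.3% of all rows. The 60S and 40S genes had medians of 0.60 and 0.51, with 12 of 41 and 9 of 30 at least 2-fold higher.

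Rps25 had the largest difference among members with no table row of like sequence. This 40S protein is needed for initiation at several viral internal ribosome entry sites (ENSMUSG00000009927, chr9:44407139-44410427). It was 91.6 FPKM in liver EMP, 486 in liver MCP, 52.0 in liver MAC, 68.1 in limb E11.5, 55.9 in limb E14.5 and 74.9 in skin. As deposited liver MCP stood alone, 5.30-fold above liver EMP, and the other 5 values lay between 52.0 and 91.6. After scaling liver MCP was 381, skin 169 and the other 4 between 45.9 and 70.3, so skin then stood apart as well. The transcript shares 26.2% of its words with other annotated genes.

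Rpl22l1, the paralog that can replace Rpl22 in the ribosome, was also highest in liver MCP, at a lower level: 8.26, 34.4, 4.44, 15.1, 10.8 and 11.46 FPKM, a difference of 1.93 between liver MCP and EMP. Rpl22 itself was 44.0, 80.3, 33.4, 40.3, 48.4 and 17.5. It was highest in the same library. After scaling, Rpl22l1 in skin (25.9) came near liver MCP (26.9). On the lower side stood Rpl34, whose sum with Rpl34-ps1 differed by only -0.21, Rps28, at 32.7 against 13.8 FPKM, and Rpl10a, a 60S protein of the L1 stalk, at 145 against 92.8.

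The library labelled liver MAC had lower values than liver EMP. The median of 74 members was -0.52 as deposited and -0.21 after scaling, against -0.29 and 0.01 over 3179 rows, and 67 members were below the EMP value (54 after scaling). None was at least 2-fold higher, where 5.85% of all rows were, and 7 were at least 2-fold lower, where 10.5% of all rows were. After scaling the counts were 0 and 2, against 8.62% and 4.50%. The count of lower members, 9.46% before scaling and 2.70% after, is thus not above the background on either scale. Rps2, a 40S protein at the mRNA entry channel, had the lowest difference besides Rps27, at 309 and 101 FPKM, 3.06-fold lower, and Rps28 was 2.54-fold lower. On the upper side Rps27rt, Rpl31 and Rpl34 led with 0.38, 0.32 and 0.17, all rows that share sequence.

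Set directly against each other, liver MCP exceeded the library labelled MAC for 71 of 75 members. The median difference was 1.18 (0.91 after scaling), against 0.15 and -0.11 over 3254 rows. At least 2-fold higher were 47 members, 62.7% of them, where 17.9% of all rows were, and 1 was lower, where 15.7% were. After scaling 32 were higher and 1 lower, against 11.46% and 20.3%. Rps25 was 9.33-fold and Rpl22l1 7.74-fold higher, while Rpl34, Rpl10a and Rpl31 were the 3 lowest, at -1.54, -0.66 and -0.41. Summed with the rows of like sequence, Rpl34 was at -0.37 and Rpl31 at -1.94, sums that still depend on how fragments were divided between rows of unlike length. The 3 liver comparisons share libraries and are not independent of each other.

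**Figure D4:**
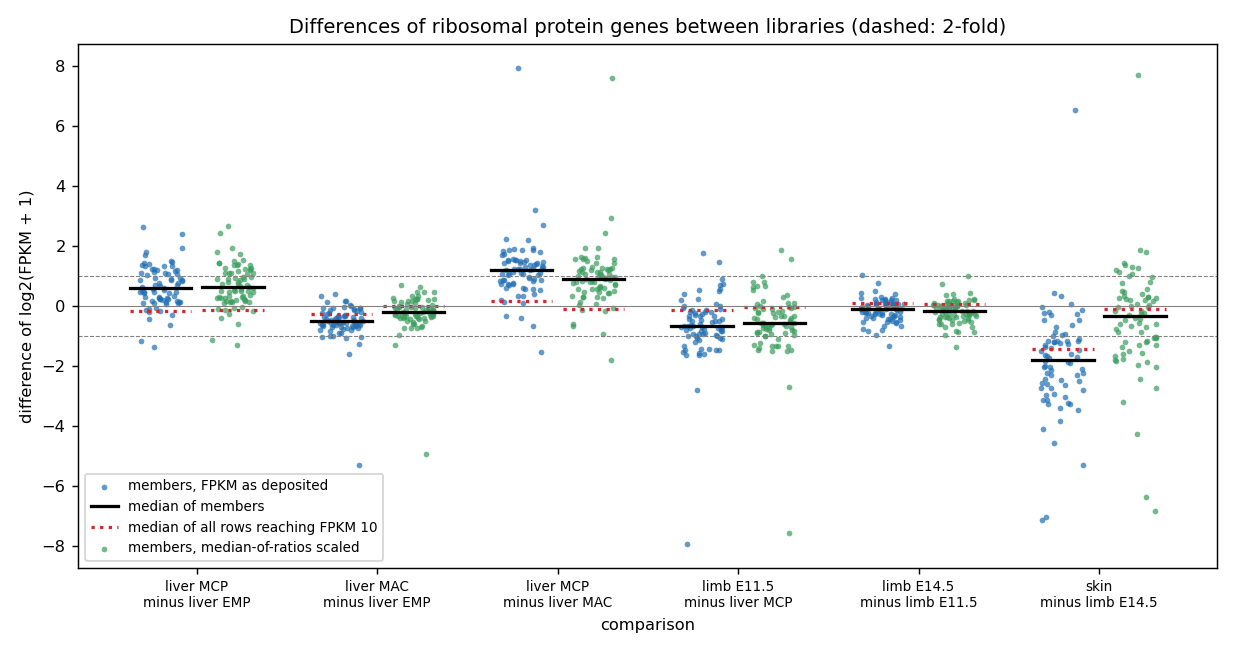
Differences of log2(FPKM + 1) in the 6 comparisons for each member that reached an FPKM of 10 (points; blue as deposited, green scaled), with the median of the members (black) and of all rows tested (red, dotted); dashed lines mark 2-fold. The members' median lies above that of all rows in the comparisons of liver MCP with EMP (0.60 against -0.18) and with MAC (1.18 against 0.15).

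Limb MCPs at E11.5 had lower values than liver MCPs of the same age. The median of 76 members was -0.69 (-0.58 after scaling), against -0.16 and -0.05 over 3136 rows, and 64 members were below the liver value. At least 2-fold lower were 21, 27.6% of them, where 14.1% of all rows were, and 2 were higher, where 8.0% were. After scaling 16 were lower and 2 higher, against 10.7% and 9.41%. Besides Rps27, whose sum with Rps27rt gave -1.12, the lowest were Rps25, 7.13-fold lower in the limb, and Rpl36al, 3.11-fold lower. Rpl36al encodes a protein nearly identical to Rpl36a; it was 239, 504, 146, 162, 189.9 and 165 FPKM, against 153, 276, 145, 219, 184 and 53.8 for Rpl36a. The 2 higher members were Rpl34 and Rpl10a, which was 255 FPKM in the limb against 92.8 in the liver. Rps28 came next, at 26.5 against 13.8 FPKM, 1.92-fold higher. Summed with Rpl34-ps1, Rpl34 was at 0.57, where its row alone gave 1.77. Rpl31 summed with Rpl31-ps12 was at 1.73, where its row alone gave 0.41.

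From E11.5 to E14.5 the limb libraries had the smallest median difference of the 6 comparisons. The median of 75 members was -0.12 (-0.17 after scaling), against 0.10 and 0.06 over 2970 rows. As deposited, 1 member was at least 2-fold higher, where 8.42% of all rows were, and 1 was lower, where 6.23% were. After scaling the counts were 0 and 1, against 7.61% and 6.43%. Rpl3, a 60S protein that reaches towards the peptidyl transferase centre, was the higher one, at 82.9 and then 171 FPKM, and Rps28 the lower, at 26.5 and then 9.94. Rpl7a and Rpl13, 60S proteins, followed upward with 0.77 and 0.49, and Rpl29 and Rps27a downward with -0.97 and -0.84. Over the same interval the summed mast cell markers went from 783 to 3809 FPKM and the connective tissue markers from 0.62 to 63.4, whose part in these values was not tested.

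The skin library had the lowest values, and how far below depends on the scale. As deposited, the median of 74 members against limb E14.5 was -1.80, but that of all 2759 rows was -1.42. At least 2-fold lower were 57 members, 77.0% of them, where 62.7% of all rows were, and 1 was higher, where 5.65% were. The higher one was the Rps27 row, and Rps27rt was among the lower, while the sum of the pair gave -0.61. After scaling the median was -0.35, against -0.09 over all rows. On this scale 26 members, 35.1%, were lower, where 26.8% of all rows were, and 10, 13.5%, were higher, where 22.3% were. Members and all rows thus both spread to both sides in this library. Core genes rested on a median of 308 estimated fragments each, and 12 of them on fewer than 100.

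Some members stood at the ends of the spread in skin. Rpl3 was 0.32 FPKM in skin, after 56.9, 118, 54.1, 82.9 and 171 in the other libraries. Rps14, a 40S protein, was 6.69 FPKM, after 169, 238, 102, 195 and 181, and Rpl10a was 9.05, after 145, 92.8, 148, 255 and 174. Each of these was far below its other 5 values, and all 3 are among the 12 with fewer than 100 fragments in skin. At the same time Rps25 and Rpl35a, a 60S protein, were not lower than in limb E14.5 even as deposited, at 74.9 against 55.9 and 67.2 against 52.8. Rpl12, a 60S protein at the base of the stalk, varied least of the core genes after scaling, over a range of 0.46, at 345, 410, 274, 358, 406 and 107 FPKM as deposited. Rps7, Rps20 and Rpl6 were also among the 5 smallest, with ranges of 0.51, 0.63 and 0.70. The widest were Rps27 (7.69), Rpl3 (6.36), Rpl34 (4.28), Rps14 (3.54) and Rpl29 (3.35), which were at their lowest in skin with the exception of Rps27.

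**Figure D5:**
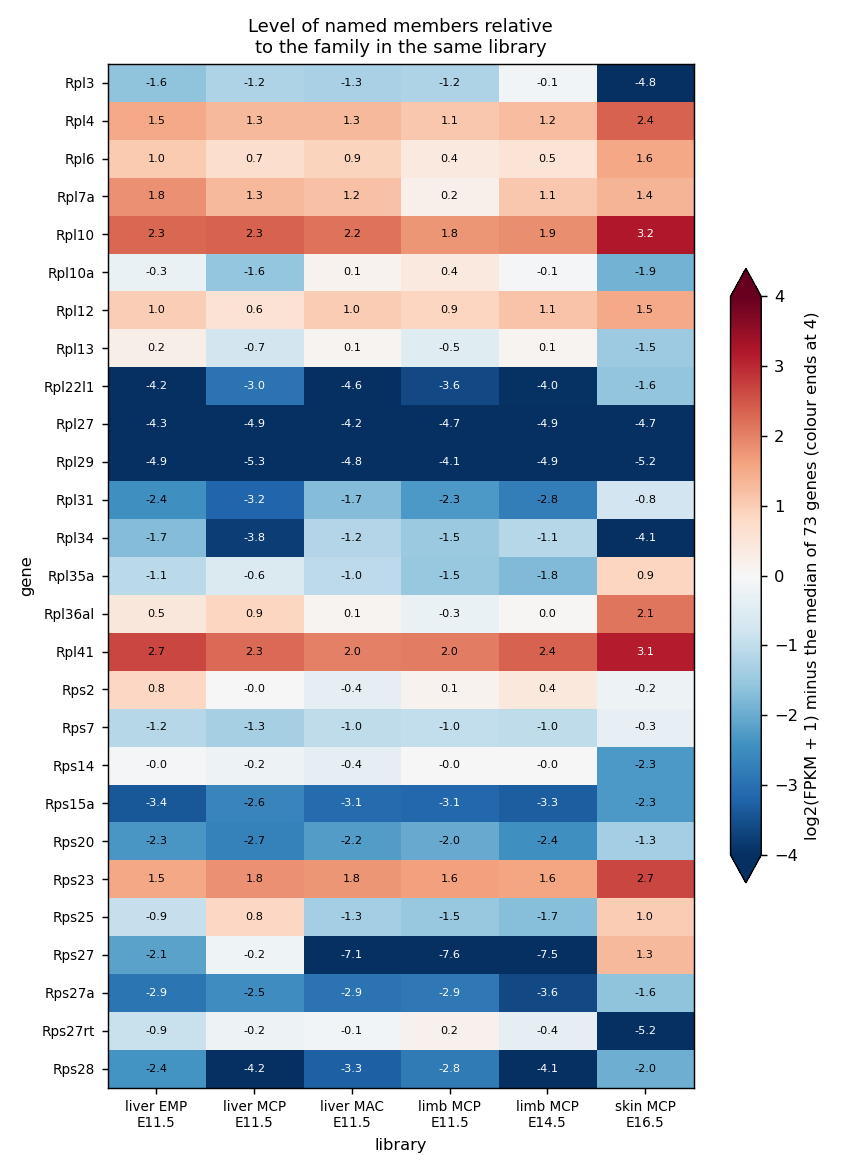
Level of members named by rule relative to the family: log2(FPKM + 1) minus the median of the 73 core genes in the same library (red above, blue below, colour ends at 4, values printed). Rps25 lies above the median in liver MCP and skin only, and Rpl3 is at -4.8 in skin.

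Genes with a known place in the ribosome differed in which library was highest, also within the same place. Rpl5 and Rpl11, which carry the 5S RNA into the 60S subunit and bind Mdm2 when assembly fails, were 24.9, 38.4, 17.8, 23.7, 31.7 and 15.2 FPKM and 301, 413, 203, 250.1, 261 and 83.6. Of the proteins that line the exit tunnel, Rpl17 was 184, 426, 129, 158, 165 and 37.7, and Rpl39 was 173, 401, 191, 276, 227 and 164. As deposited, all 4 were highest in liver MCP and lowest in skin. After scaling Rpl11 and Rpl17 still were, while Rpl5 and Rpl39 were highest in skin (34.3 and 371, against 30.1 and 314 in liver MCP). The mRNA channel proteins Rps2 and Rps3 did not follow on either scale: Rps2 was highest in liver EMP (309 FPKM) and Rps3 in limb E11.5 (323), with 274 and 219 in liver MCP. Rps10 and Rps20, which are marked with ubiquitin when ribosomes collide, were 309, 337, 182, 295, 207 and 20.9 and 34.1, 41.9, 27.4, 48.0, 32.8 and 13.8. Rps10 was highest in liver MCP and Rps20 in limb E11.5, on both scales.

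The 19 members linked to Diamond-Blackfan anaemia had medians close to those of the family. Between liver MCP and EMP, 18 reached the minimum, with a median of 0.54, 5 at least 2-fold higher and 1 lower, beside 8.52% and 15.9% of all rows. Between liver MCP and MAC the median was 1.05, with 10 of 18 higher, beside 17.9% of all rows. Rps19, the gene most often affected, was 67.8, 115, 45.7, 73.4, 57.0 and 8.68 FPKM, highest in liver MCP. Beside this, 10 erythroid marker genes summed to 65.0 FPKM in liver EMP, 337 in liver MCP, 29.6 in liver MAC, 51.7 and 8.40 in the limb libraries and 3.06 in skin. Their sum was thus also highest in liver MCP and lowest in skin, and its part in the level of the ribosomal protein genes was not tested.

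Among the paralogs, Rpl36al and Rps27rt carried nearly all of the signal. Rps27l, which p53 induces, was 17.5, 20.7, 8.95, 17.8, 14.1 and 2.20 FPKM, and Rpl7l1 was 7.28, 7.08, 4.24, 7.07, 5.50 and 0.21. Both were lowest in skin. Rpl37rt reached 1.46 in limb E11.5 and was at most 0.48 elsewhere. Rpl32l stayed at or below 0.43, and Rpl3l and Rpl39l, the muscle and testis forms, were listed at 0 in 5 of 6 libraries each. The Rps19 partner Rps19bp1 was 1.22 to 6.80 FPKM, under the minimum in all libraries.

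The 6 subunit genes outside the name rule were not shifted in liver MCP against EMP. Their median difference was 0.00, with none 2-fold higher or lower, against 0.60 for the members. Rplp0, the base of the acidic stalk, was 676, 384, 480, 766, 695 and 45.4 FPKM, so lower in liver MCP than in liver EMP. Rpsa, a 40S protein also known as a laminin receptor, was 293, 339, 182, 245, 289.9 and 41.2, and Fau, a fusion of a ubiquitin-like protein with a 40S protein, was 107, 73.6, 97.0, 109, 96.7 and 9.60. Between skin and limb E14.5 their median was -2.99 (-1.58 after scaling), against -1.42 (-0.09) over all rows. As deposited all 6 were at least 2-fold lower, where 62.7% of all rows were, and after scaling 5 were, where 26.8% were.

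Other parts of the translation machinery gave a mixed picture. Between liver MCP and EMP the 28 initiation factors (26 tested) had a median of 0.21 with 5 higher and 1 lower, the 7 elongation genes -0.09 with 3 higher, the 31 assembly factors (23 tested) 0.21 with 1 higher and 2 lower, and the 77 mitochondrial ribosomal protein genes (34 tested) 0.10 with 4 higher and 3 lower. Each of these medians was under that of the members, and the shares over all rows were 8.52% higher and 15.9% lower. Eef1a1, the elongation factor that brings aminoacyl-tRNA and whose mRNA has a pyrimidine start like those of the ribosome, was 33.3, 294, 6.58, 11.49, 13.3 and 44.3 FPKM. It was highest in liver MCP, and 59.2% of its words occur in other annotated genes. Between liver MCP and MAC the assembly factors came close to the members, with a median of 1.04 and 11 of 22 higher, where 17.9% of all rows were. Npm1, the nucleolar chaperone, was 1010, 2096, 533, 785, 1016 and 544 FPKM. Of limb E11.5 against liver MCP the median of the assembly factors was -1.05, with 12 of 21 lower, where 14.1% of all rows were, and from limb E11.5 to E14.5 it was 0.44, where that of the members was -0.12. Of 12 regulators, 6 were tested between liver MCP and EMP, with a median of -0.60, and Myc, which drives many ribosome genes, was 104, 62.9, 33.1, 56.3, 33.9 and 4.29 FPKM.

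The levels of the genes relative to each other set liver MCP and skin apart from the rest. Over 70 core genes (without Rps27, Rpl31 and Rpl34), Pearson's r of log2(FPKM + 1) between pairs of liver EMP, liver MAC and both limb libraries was 0.954 to 0.977. The SD of the gene by gene difference was 0.317 to 0.458. Liver MCP correlated with these 4 at 0.885 to 0.915, with an SD of 0.621 to 0.696, and skin at 0.692 to 0.728, with an SD of 1.15 to 1.24. Skin was closest to liver MCP, at 0.835 with an SD of 0.908. The points are genes of the same libraries and share depth and base composition, so these are descriptions.

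Base composition moved with the same differences. Spearman's rho between the GC content of the transcript and the difference was -0.53 over the 70 core genes for liver MCP against EMP, and -0.43 over all 3272 rows with a value. For skin against limb E14.5 it was -0.48 and -0.44. For limb E14.5 against E11.5 it was 0.05 and 0.01. The others gave -0.40 and -0.26 (liver MAC against EMP), -0.32 and -0.19 (liver MCP against MAC) and 0.34 and 0.23 (limb E11.5 against liver MCP). Genes of low GC content thus tended to lie higher in liver MCP than in the other E11.5 libraries, among members and all rows. They did so too in liver MAC against EMP and in skin against limb E14.5. The part of GC content in the members' differences was not tested. Transcript length gave rho of 0.10 and 0.04 for liver MCP against EMP and skin against limb E14.5, and the share of words found in other genes 0.03 and 0.02. Core genes with under 40% of words shared had a median of 0.48 in liver MCP against EMP (28 genes), and those with more 0.61 (42 genes).

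The pyrimidine run described at the outset was looked for at the start sites. RefSeq start windows (GRCm38.p6) were at hand for 64 members, 54 of them core genes. A C at the start followed by at least 4 more C or T occurred at a listed start of 12 of the 54 core genes (22.2%), and of 2.88% of the 13619 table genes with such a window. The windows below are those of the 5 core genes with the longest runs and hold 20 bases before the start and 20 from it, with the run in capitals.
Rpl15 (chr14:18270967-18271006, minus strand): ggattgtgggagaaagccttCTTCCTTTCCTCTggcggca
Rpl35 (chr2:39005112-39005151, minus strand): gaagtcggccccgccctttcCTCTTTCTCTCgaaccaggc
Rps10 (chr17:27635225-27635264, minus strand): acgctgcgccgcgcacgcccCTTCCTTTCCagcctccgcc
Rps6 (chr4:86857348-86857387, minus strand): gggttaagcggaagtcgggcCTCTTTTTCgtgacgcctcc
Rps18 (chr17:33955646-33955685, minus strand): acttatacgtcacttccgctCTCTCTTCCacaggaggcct

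Of these 5, Rpl15 and Rps6 were at least 2-fold higher in liver MCP than in EMP, where 8.52% of all rows were, and Rpl35, Rps10 and Rps18 were not. Rpl15, a 60S protein, was 18.0, 51.7, 13.8, 18.1, 18.98 and 18.2 FPKM. Liver MCP alone was above the rest as deposited, while after scaling skin (41.3) was level with liver MCP (40.5). Rps6, the 40S protein that S6 kinases phosphorylate, was 258, 546, 189.6, 235, 268 and 191, and after scaling 432 in skin and 428 in liver MCP. Rps18, a 40S protein, was 313, 451, 192, 332, 348 and 54.7. Rpl35, a 60S protein at the tunnel exit, was 106, 113, 67.9, 88.3, 101 and 10.5. The median difference between liver MCP and EMP was 0.85 over the 12 genes with a run and 0.46 over the 41 others tested, with 6 and 9 at least 2-fold higher, beside the same 8.52% of all rows. The 12 include Rps27, whose row is uncertain beside that of Rps27rt. The medians were 1.48 and 1.07 for liver MCP minus MAC, and -0.61 and -0.51 for liver MAC minus EMP. They were -0.75 and -0.67 for limb E11.5 minus liver MCP, and -0.16 and -0.09 for limb E14.5 minus E11.5. For skin minus limb E14.5 they were -1.97 and -1.71. Only starts listed by RefSeq were read, so a gene counted without a run may have one at another start.

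Other short motifs were searched in the 300-base windows, 250 before the start and 50 from it. The ETS letters ccggaag, on either strand, were in 40.7% of the core genes and 14.9% of the table genes, and the YY1 letters aagatggc, on either strand, in 9.26% and 4.14%. The E-box cacgtg, which reads the same on both strands, was in 11.1% and 9.95%, and tataaa, on the gene's strand only, in 7.41% and 7.82%. The ETS and YY1 letters can overlap by the aag they share. A match says only that the letters are there.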

How the data were processed

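Total RNA of sorted embryonic cells was sequenced in 6 libraries, 1 per group. The authors deposited 1 table of FPKM values for 17913 rows with 2 decimals; Bowtie2, RSEM and mm10/GRCm38 are named in the submitters' processing notes, and the sources used here give neither version nor settings. The unit was taken from the file and checked against its values. RSEM is a tool that divides fragments between like sequences, so rows of near-identical genes are uncertain. The 4 rows with a repeated name were left out, leaving 17909.

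Differences are of log2(FPKM + 1) with pseudocount 1, between libraries, for rows that reached an FPKM of 10 in one or both; a difference of at least 1 was counted. With 1 library per group no test was possible, so 2-fold counts and medians stand beside those of all rows. Counts by direction alone were made for members only. Depth was estimated from the steps between low FPKM values (74.6% to 80.6% of values within 0.2 of a whole number of fragments at the estimate). The size was chosen to bring fragments near whole numbers, so this share follows from the choice. Over all sizes tried, the median share was 28.1% to 33.8%. The estimate is no exact depth. Calls and size factors were tested on simulated data, in which all 200 changed genes of 17909 were recovered at 4-fold. The changed genes were well expressed and the noise was counting noise alone. The simulation thus says nothing on changes near 2-fold, low values or shared sequence. Shared sequence was measured as 50-base words of GENCODE M21 transcripts; start sites are from RefSeq (GRCm38.p6). Tools were Python 3.11.15, numpy 2.4.6, pandas 2.3.3, scipy 1.17.1 and matplotlib 3.10.9.

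Named genes are, per comparison, the 3 largest differences in each direction; the members listed at 0 in one library and at least 10 in another; the 5 highest and lowest means; the 5 smallest and largest ranges; paralogs of at least 1; and lists by role. Some genes that this rule takes are not reported here. The members, the lists and the rule were chosen with earlier results of these data known. Alternatives were a pseudocount of 0.1 or 5, no minimum or one of 30, rescaling to equal sums, median-of-ratios scaling, core genes only, and leaving out members listed at 0; summing rows that share sequence, and scaling without the skin library, were added after the values were seen.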

Additional observations from a re-analysis of the deposited data

How the results depend on the processing

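No median difference of the 6 comparisons reversed under any alternative tried; 47 of 59 values stayed within 0.1 and 12 moved. Liver MCP minus EMP moved from 0.60 to 0.48 with no minimum and to 0.76 after rescaling to equal sums. Liver MAC minus EMP moved from -0.52 to -0.21 with median-of-ratios scaling and to -0.19 when skin was left out of that scaling. Liver MCP minus MAC moved from 1.18 to 0.91 and 0.92 under these 2 scalings. Limb E11.5 minus liver MCP moved from -0.69 to -0.58 and -0.59, and to -0.56 after rescaling to equal sums. Skin minus limb E14.5 moved from -1.80 to -1.67 with a pseudocount of 5, to -0.99 after rescaling to equal sums and to -0.35 with median-of-ratios scaling. The share of skin was 6.37% without Cpa3 in its sum, against 5.34%. Of the counts of members at least 2-fold higher, 52 of 59 stayed within 1.5 times, and of those lower 49 of 59; the others were as follows. Of liver MAC minus EMP, 7 members were lower as deposited, 3 after rescaling to equal sums and 2 with either median-of-ratios scaling. With like rows summed, 1 was higher there instead of 0, and 1 instead of 2 was lower in liver MCP minus EMP. Of limb E14.5 minus E11.5, 2 instead of 1 were lower with a pseudocount of 0.1, no minimum or equal sums, 0 were with a minimum of 30, and 0 instead of 1 were higher with equal sums or median-of-ratios scaling. Of skin minus limb E14.5, 57 were lower and 1 higher as deposited, 37 and 3 with equal sums and 26 and 10 with median-of-ratios scaling; none was higher without members listed at 0 or with like rows summed. Why the values moved was not tested. No paired analysis was possible because each group held 1 library, and no library could be left out of a group. Depth limits skin most, with 12 core genes on fewer than 100 estimated fragments.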
